A study of Homo sapiens with 6 samples.

Results

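Transcripts of 38 enzymes that build and sulfate glycosaminoglycan chains were followed in H69, a cultured human cholangiocyte line, with and without TGF-beta. The 38 genes were taken by symbol from a list of the pathway's enzymes, and each matched 1 of the 64253 rows of the deposited gene table; 1 further row, a copy of a member on an alternate sequence, was not used. By step of synthesis, 6 belong to the linker, 15 to chondroitin and dermatan sulfate, 14 to heparan sulfate and 3 to hyaluronan. The TGF-beta group held 3 libraries of cells given recombinant human TGF-beta (10 ng/ml, 16 h), and the vehicle group held 3 libraries of cells given vehicle (16 h). All cells were grown in H69 medium and lay between passages 30 and 32, and their RNA was sequenced. H69 is an immortalised line, so it stands for dividing biliary cells in culture, without neighbouring stroma. The labels do not say whether replicates were separate cultures, so the p-values measure the spread between these libraries, which may be technical.

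Glycosaminoglycans are long, mostly sulfated sugar chains carried by proteoglycans such as syndecans, glypicans, versican and biglycan. A shared linker sugar is assembled on a serine of the core protein and is then extended either with N-acetylgalactosamine, which gives chondroitin or dermatan sulfate, or with N-acetylglucosamine, which gives heparan sulfate; hyaluronan is spun out at the plasma membrane with no core protein and no sulfate. Sulfotransferases and epimerases then modify the chains, and the resulting patterns set how growth factors, chemokines and matrix proteins bind, TGF-beta itself among them.

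Library totals were 37205862, 47314515 and 40765451 counts in TGF-beta replicates 1, 2 and 3, and 39971568, 54160521 and 49604277 counts in vehicle replicates 1, 2 and 3. Levels are given as CPM, counts relative to the TMM-scaled library size, in which 1 CPM stood for 35.7 to 56.2 reads. Vehicle replicate 1 stood apart from vehicle replicates 2 and 3 on the second principal component (36.6, against -14.9 and -18.7), and where leaving it out changed a member's call, the value without it is given beside the result. SMAD7, a feedback target of TGF-beta signalling, had 71.1 to 76.7 CPM with TGF-beta against 10.3 to 14.7 CPM in vehicle. Of the cholangiocyte markers reported here, KRT7, KRT19, SOX9 and EPCAM were present, whereas CFTR had no read in any library. KRT7 was higher with TGF-beta (2834 to 3134 CPM, against 1435 to 1732 CPM in vehicle). SOX9 (5.96 to 6.48 CPM, against 15.2 to 24.4 CPM in vehicle) and EPCAM (9.51 to 9.83 CPM, against 11.9 to 15.9 CPM) were lower. KRT19 overlapped between the conditions (275 to 313 CPM with TGF-beta, 267 to 435 CPM in vehicle). The hepatocyte markers ALB, APOA1, TTR and CYP3A4 stayed at or under 0.286 CPM, and the endothelial markers PECAM1, CDH5 and VWF summed to 1.06 to 1.26 CPM with TGF-beta and 1.55 to 2.19 CPM in vehicle. Of the leukocyte markers, PTPRC stayed at or under 0.135 CPM and CD68 at 8.84 to 10.3 CPM with TGF-beta and 8.99 to 10.5 CPM in vehicle. Among fibroblast and stellate markers, PDGFRB had 130.2 to 141 CPM with TGF-beta and 59.4 to 71.9 CPM in vehicle, while DCN and LRAT stayed at or under 1.19 CPM and LUM and DES at or under 0.0715 CPM; the 5 summed to 132 to 143 CPM with TGF-beta and 61.6 to 73.3 CPM in vehicle, and the part of PDGFRB-expressing cells in the results was not tested. In RNA from whole cultures, a change in the number of cells that use a gene and a change in RNA per cell cannot be told apart.

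Of the 38 genes, 35 had enough reads to be tested, and 9 passed the test higher and 14 lower with TGF-beta (edgeR quasi-likelihood test, Benjamini-Hochberg adjusted p below 0.05 over all 20992 genes tested). That is 65.7% of the tested members, set against 40.1% of all genes tested (19.7% higher and 20.4% lower). Of the protein-coding genes tested, 46.8% were called. With library totals as the only scaling, the median log2 fold change of all genes was -0.14 in place of -0.01, and the counts were 7 members higher and 17 lower, so that 29.2% of called members were higher in place of 39.1%; directions here are relative to the TMM scaling. For 24 members all TGF-beta libraries lay on one side of all vehicle libraries. The same held for 52.3% of all genes tested and for 8509 of the 14518 protein-coding genes tested. The median absolute log2 fold change was 0.31 over the members and 0.22 over all genes, while the signed medians were -0.04 and -0.01. Calls of at least 2-fold were made for 6 members, CHST3, CHST11 and NDST1 upward and HS3ST1, HS6ST1 and HAS2 downward, and for 8.37% of all genes. By class, calls were made for 2 of 5 tested linker genes, 12 of 15 chondroitin and dermatan genes, 6 of 12 heparan genes and 3 of 3 hyaluronan genes. The 3 untested genes were XYLT1 (9 reads over the TGF-beta libraries, 7 over vehicle), HS3ST3A1 (11 reads with TGF-beta, 27 in vehicle) and HS6ST2 (0 and 1 read, where 3 reads would correspond to 0.0662 to 0.0840 CPM in a TGF-beta library).

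**Figure D1:**
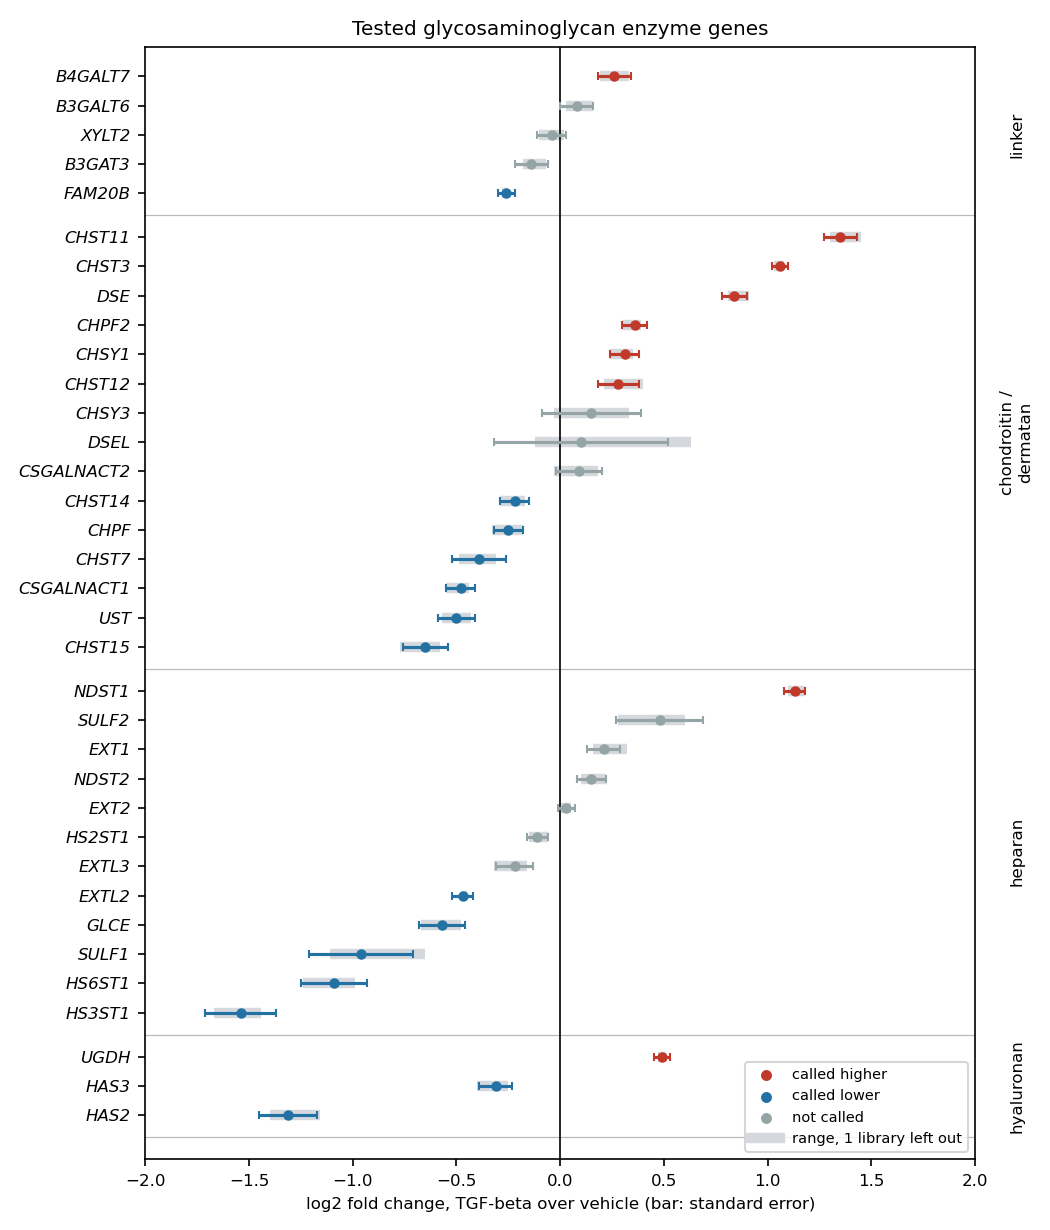
Log2 fold change of TGF-beta over vehicle for the 35 tested genes, grouped by class, with the standard error as a bar and the range over fits that leave out 1 library in grey. NDST1, CHST3 and CHST11 lie above 1 on the log2 scale and HS3ST1, HAS2 and HS6ST1 below -1, and the grey range is widest for DSEL.

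The start regions of 5 of the 6 genes that moved by at least 2-fold (HAS2 is not shown) come first, as the annotated sequences around their transcription starts. RefSeq windows of 250 bases before to 50 bases after an annotated start (GRCh38.p14) were matched for 33 members, 45 windows in all, of 35116 in the table. Capitals mark TGAGTCA, the AP-1 site; CACCTG, an E-box bound by SNAIL-type repressors; CAGACA, the SMAD-binding box; and GGGCGG, the GC box of SP1, each searched on both strands, so TGTCTG and CCGCCC are reverse matches.
NDST1, chr5:150497529-150497828, plus strand: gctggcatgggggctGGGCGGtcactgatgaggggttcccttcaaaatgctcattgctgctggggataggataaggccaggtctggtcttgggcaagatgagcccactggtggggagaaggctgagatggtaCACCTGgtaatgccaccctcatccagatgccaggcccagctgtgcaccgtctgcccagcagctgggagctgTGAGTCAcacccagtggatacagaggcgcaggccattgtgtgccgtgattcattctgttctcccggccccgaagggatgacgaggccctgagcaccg
CHST11, chr12:104456698-104456997, plus strand: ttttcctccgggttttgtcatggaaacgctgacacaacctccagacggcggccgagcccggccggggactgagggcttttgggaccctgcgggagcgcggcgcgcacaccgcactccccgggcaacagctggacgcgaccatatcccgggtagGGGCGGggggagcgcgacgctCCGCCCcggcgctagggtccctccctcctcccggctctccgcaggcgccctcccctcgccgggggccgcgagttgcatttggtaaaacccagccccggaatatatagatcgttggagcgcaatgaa
CHST3, chr10:71965091-71965390, plus strand: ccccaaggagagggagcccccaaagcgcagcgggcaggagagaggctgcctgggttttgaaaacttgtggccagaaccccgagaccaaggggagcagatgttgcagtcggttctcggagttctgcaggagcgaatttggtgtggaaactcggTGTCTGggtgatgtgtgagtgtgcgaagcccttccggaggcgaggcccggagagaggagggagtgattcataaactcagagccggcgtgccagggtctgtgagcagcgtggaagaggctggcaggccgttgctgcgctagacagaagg
HS6ST1, chr2:128318819-128319118, minus strand: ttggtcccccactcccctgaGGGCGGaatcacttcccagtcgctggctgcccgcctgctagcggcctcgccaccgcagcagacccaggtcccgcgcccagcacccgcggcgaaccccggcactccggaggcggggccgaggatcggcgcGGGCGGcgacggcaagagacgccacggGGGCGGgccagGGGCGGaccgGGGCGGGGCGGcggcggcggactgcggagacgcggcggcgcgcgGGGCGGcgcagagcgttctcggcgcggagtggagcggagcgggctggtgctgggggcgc
HS3ST1, chr4:11428845-11429144, minus strand: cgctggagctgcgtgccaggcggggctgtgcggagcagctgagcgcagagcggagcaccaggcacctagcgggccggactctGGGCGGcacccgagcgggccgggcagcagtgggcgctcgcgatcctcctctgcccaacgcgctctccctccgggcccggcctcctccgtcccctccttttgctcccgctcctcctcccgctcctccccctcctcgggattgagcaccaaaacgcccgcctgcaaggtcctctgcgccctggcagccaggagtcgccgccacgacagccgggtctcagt
The NDST1 window held TGAGTCA 47 bases before the start and CACCTG 118 bases before it, and the CHST3 window shown held the CAGACA box in reverse, 98 bases before the start. CHST3 has 2 other windows, not printed here, which hold GGGCGG and no CAGACA. Neither motif was more frequent in member windows than in the table as a whole. CAGACA or its reverse stood in 6 of the 45 member windows (13.3%) and in 16.9% of all windows, and TGAGTCA in 2 of 45 (4.44%) and in 4.95% of all windows. CACCTG was in 13.3% of member windows and 20.6% of all. GGGCGG, a motif added after the windows had been seen, was in 38 of 45 member windows (84.4%) and in 45.0% of all; it occurred in windows of genes that rose and of genes that fell, with 7 matches in that of HS6ST1. A match describes letters only. Counts in the table sum over all starts of a gene, so which start was used is not known. The NDST1 window printed lies inside the gene, whose span begins at position 150485818, so its start is internal. The printed windows of CHST11, CHST3 and HS3ST1 also lie within their gene spans. That of HS6ST1 begins at position 128318819 and lies upstream of its gene span, which ends at 128318577 on the minus strand.

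Linker assembly is shared by chondroitin, dermatan and heparan sulfate, and 1 of its tested genes rose and 1 fell. FAM20B, the kinase that phosphorylates the linker xylose, had 51.6, 50.1 and 49.3 CPM in TGF-beta replicates 1, 2 and 3, against 60.1, 59.5 and 61.5 CPM in vehicle replicates 1, 2 and 3. All 3 TGF-beta libraries lay below every vehicle library. It fell by 0.26 on the log2 scale (SE 0.04, edgeR adjusted p = 0.000815). B4GALT7, which adds the first galactose, rose, with 22.4, 24.4 and 27.2 CPM with TGF-beta against 19.0, 21.1 and 21.5 CPM in vehicle, a log2 fold change of 0.26 (SE 0.08, edgeR adjusted p = 0.0231). Its call did not hold without TGF-beta replicate 2 (edgeR adjusted p = 0.0672) or TGF-beta replicate 3 (0.103), nor with library totals alone (0.169). XYLT2, the xylosyltransferase that starts the chain, measured 34.3 ± 2.15 CPM with TGF-beta and 35.3 ± 3.05 CPM in vehicle (SD, n = 3 each) and was not called (log2 -0.04, SE 0.07). Its paralog XYLT1 was near 0, and XYLT2 accounted for 99.9% of their summed RPKM in both conditions. B3GALT6, which adds the second galactose (log2 0.08, SE 0.08), was not called. B3GAT3, which caps the linker with glucuronic acid and had the highest RPKM of the class with TGF-beta, measured 19.7, 21.8 and 22.2 CPM with TGF-beta against 22, 22.4 and 26.0 CPM in vehicle. Those ranges overlap, and B3GAT3 was not called (log2 -0.14, SE 0.08, edgeR adjusted p = 0.164), but was called lower without vehicle replicate 1 (-0.18, edgeR adjusted p = 0.0176).

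Chondroitin chains are begun by the CSGALNACT enzymes and extended by complexes of CHSY1, CHSY3, CHPF and CHPF2. CSGALNACT1, which commits the linker to chondroitin, measured 18.7 ± 0.578 CPM with TGF-beta and 26.1 ± 2.25 CPM in vehicle (SD, n = 3 each), and it fell by 0.48 on the log2 scale (SE 0.07, edgeR adjusted p = 0.000371). Its paralog CSGALNACT2 was not called (31.7 ± 1.69 CPM with TGF-beta, 29.8 ± 4.66 CPM in vehicle). Polymerising subunits parted. CHPF2, the most abundant member of the chondroitin class per gene length, had 134, 135 and 146 CPM with TGF-beta against 99.9, 110.4 and 113 CPM in vehicle. The conditions did not overlap, and CHPF2 rose by 0.36 (log2, SE 0.06, edgeR adjusted p = 0.000660). CHSY1, the chain polymerase, rose too, at 54.4, 52.6 and 50.9 CPM with TGF-beta and 38, 44.4 and 44.7 CPM in vehicle (log2 0.31, SE 0.07, edgeR adjusted p = 0.00339). CHPF, a cofactor of polymerisation, fell by 0.25 (log2, SE 0.07, edgeR adjusted p = 0.0170), a call that was lost without TGF-beta replicate 1 (0.0585), TGF-beta replicate 2 (0.0621) or vehicle replicate 2 (0.0643). CHSY3 stood near 1 CPM in both conditions (1.02 ± 0.271 CPM with TGF-beta, 0.932 ± 0.189 CPM in vehicle) and was not called.

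Chondroitin sulfotransferases moved in opposite directions. CHST11, a chondroitin 4-O-sulfotransferase (ENSG00000171310, chromosome 12, 104455295 to 104762014 in hg38), had 66.6, 70.9 and 67.0 CPM with TGF-beta against 30.5, 25 and 24.9 CPM in vehicle. Every TGF-beta library lay far above every vehicle library, and the fold was 2.55 (log2 1.35, SE 0.08, edgeR adjusted p = 7.33e-07). CHST3, a chondroitin 6-O-sulfotransferase (ENSG00000122863, chromosome 10, 71964365 to 72013564), had 170.3, 171 and 179.9 CPM with TGF-beta against 85.8, 83.0 and 81.5 CPM in vehicle. It rose 2.08-fold (log2 1.06, SE 0.04, edgeR adjusted p = 3.66e-08), and its replicates lay close together in both conditions. CHST15, which adds a 6-O-sulfate to units already sulfated at the 4 position, went the other way, with 59.4, 55.3 and 56.5 CPM with TGF-beta against 73.6, 97.0 and 97.0 CPM in vehicle. It fell by 0.65 on the log2 scale (SE 0.11, edgeR adjusted p = 0.00335). Vehicle replicate 1 was the lowest of the vehicle libraries for CHST15, and without it the log2 fold change was -0.77. UST, which sulfates the uronic acid, fell as well, with 10.8, 9.20 and 9.65 CPM with TGF-beta and 15.4, 13.5 and 13.0 CPM in vehicle (log2 -0.50, SE 0.09, edgeR adjusted p = 0.00127).

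The remaining GalNAc sulfotransferases changed less, and their calls depended on single libraries. CHST12, the second 4-O-sulfotransferase, was called higher, with 19.8, 21.8 and 22 CPM with TGF-beta against 20.3, 16.4 and 15.8 CPM in vehicle (log2 0.28, SE 0.10, edgeR adjusted p = 0.0394). Vehicle replicate 1 lay within the TGF-beta range, and the edgeR adjusted p lay between 0.0524 and 0.136 without TGF-beta replicate 1, 2 or 3 or vehicle replicate 2 or 3, and was 0.216 with library totals alone. Without vehicle replicate 1 the log2 fold change was 0.40 (edgeR adjusted p = 3.50e-06). CHST14, which sulfates dermatan at the 4 position, was called lower, at 24.2 ± 0.852 CPM with TGF-beta and 28.3 ± 2.55 CPM in vehicle (SD, n = 3 each; log2 -0.22, edgeR adjusted p = 0.0278), and leaving out each of the same 5 libraries in turn gave 0.0595 to 0.110. CHST7, the second 6-O-sulfotransferase, was scarce and was called lower, at 2.80 ± 0.249 CPM with TGF-beta and 3.66 ± 0.513 CPM in vehicle (log2 -0.39, edgeR adjusted p = 0.0420), with 0.0743 to 0.148 without each of those 5 libraries and 0.0943 by DESeq2.

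Dermatan sulfate arises when an epimerase turns glucuronic into iduronic acid within the chain. DSE, the main epimerase, had 122, 125 and 124 CPM with TGF-beta against 75.7, 65.7 and 66.2 CPM in vehicle, with no overlap. It rose by 0.84 on the log2 scale (SE 0.06, edgeR adjusted p = 1.45e-06). DSEL, its paralog, had 29.4, 28.9 and 26.7 CPM with TGF-beta, which lay between vehicle replicate 1 (43.3 CPM) and vehicle replicates 2 and 3 (18.8 and 17.8 CPM). DSEL was not called (log2 0.10, SE 0.42, edgeR adjusted p = 0.877), but without vehicle replicate 1 it was called higher (log2 0.63, edgeR adjusted p = 3.14e-10). That fit rests on vehicle replicates 2 and 3, which lay close together. The antisense transcript AC110597.3 shares 34.7% of the exon bases of DSEL and was likewise highest in vehicle replicate 1 and lowest in vehicle replicates 2 and 3, with 13.4, 13.7 and 11.8 CPM with TGF-beta against 18.8, 8.68 and 7.97 CPM in vehicle. Without a stated strand setting, reads of the pair cannot be told apart.

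**Figure D2:**
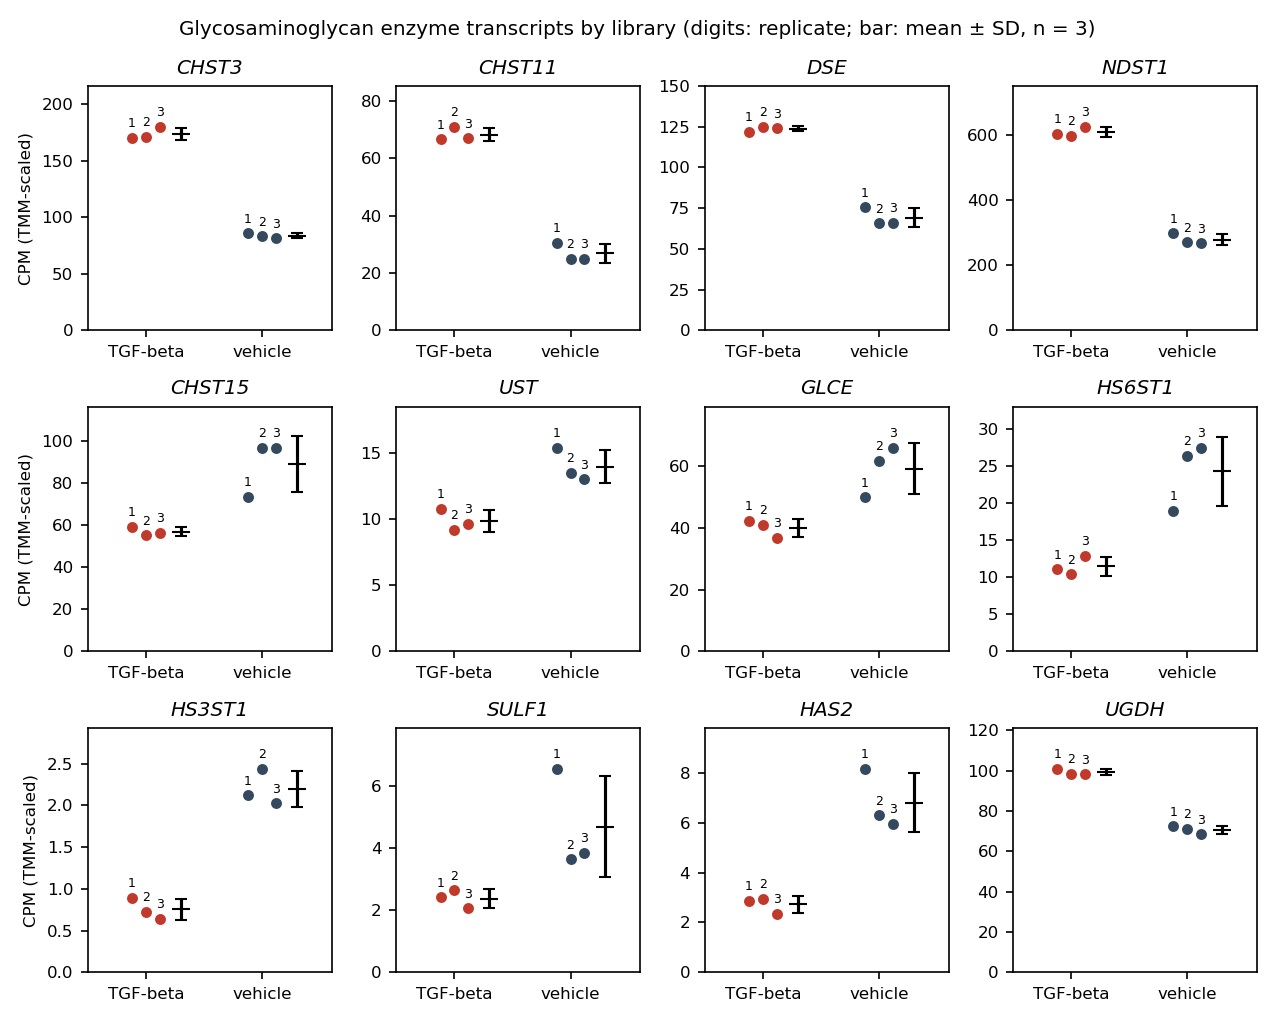
CPM in each library for 12 enzymes, numbered by replicate, with the mean and SD (n = 3) beside each condition, TGF-beta on the left and vehicle on the right. CHST3, CHST11, DSE, NDST1 and UGDH lie higher in every TGF-beta library and the other 7 lower, and vehicle replicate 1 sits away from vehicle replicates 2 and 3 for CHST15, HS6ST1 and SULF1.

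Heparan sulfate is begun by EXTL3, extended by the EXT1 and EXT2 copolymerase and then modified in a set order that opens with N-deacetylation and N-sulfation. NDST1, the enzyme of that opening step (ENSG00000070614, chromosome 5, 150485818 to 150558211), was the most abundant member per gene length in both conditions and was the single heparan enzyme called higher. It had 603, 597 and 625 CPM with TGF-beta against 298, 271 and 267 CPM in vehicle. The conditions were far apart, at 608 ± 14.4 CPM with TGF-beta and 278 ± 17 CPM in vehicle (SD, n = 3 each), a 2.19-fold rise (log2 1.13, SE 0.05, edgeR adjusted p = 6.35e-08). NDST2, the second N-sulfotransferase, was not called (log2 0.15, SE 0.07, edgeR adjusted p = 0.118), though it was called higher without vehicle replicate 3 (0.22, edgeR adjusted p = 0.0240). A transcript of the same strand, AC022400.6, shares 82.9% of the exon bases of NDST2, so how reads were divided between them is uncertain.

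Neither copolymerase gene was called. EXT2 measured 76.3 ± 2.53 CPM with TGF-beta and 74.9 ± 0.314 CPM in vehicle (log2 0.03, SE 0.04). EXT1 had 102, 95.5 and 99.6 CPM with TGF-beta against 98.0, 79.5 and 79.5 CPM in vehicle, where vehicle replicate 1 fell within the TGF-beta range (log2 0.21, SE 0.08, edgeR adjusted p = 0.0673). Without vehicle replicate 1, EXT1 was called higher (0.32, edgeR adjusted p = 3.26e-07) and EXTL3, not called with all libraries (log2 -0.22, edgeR adjusted p = 0.0814), was called lower (-0.32, edgeR adjusted p = 3.06e-07); DESeq2 also called EXT1 (adjusted p = 0.0323). EXTL2, a transferase that can cap the phosphorylated linker and stop the chain, fell, with 17.4, 17.5 and 17.5 CPM with TGF-beta against 24.7, 23.8 and 24.0 CPM in vehicle (log2 -0.47, SE 0.05, edgeR adjusted p = 6.39e-05).

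Of the 4 tested enzymes that act after N-sulfation inside the cell, 3 fell. GLCE, the epimerase that makes iduronic acid in heparan sulfate, had 42.4, 41.0 and 36.8 CPM with TGF-beta against 50, 61.8 and 66.0 CPM in vehicle, and it fell by 0.57 (log2, SE 0.11, edgeR adjusted p = 0.00482). HS6ST1, the main 6-O-sulfotransferase here (ENSG00000136720, chromosome 2, 128236716 to 128318577), had 11.1, 10.4 and 12.9 CPM with TGF-beta against 19.0, 26.4 and 27.5 CPM in vehicle. It fell by 1.09 (log2, SE 0.16, edgeR adjusted p = 0.00175), and by 1.24 without vehicle replicate 1, the lowest vehicle library. HS3ST1, the 3-O-sulfotransferase known for the antithrombin-binding site of heparin (ENSG00000002587, chromosome 4, 11393150 to 11429765), was scarce, with 0.896, 0.728 and 0.645 CPM with TGF-beta against 2.12, 2.44 and 2.03 CPM in vehicle. These values rest on 90 reads over the TGF-beta libraries and 331 over the vehicle libraries, and the gene fell by 1.54 (log2, SE 0.17, edgeR adjusted p = 5.96e-05). HS2ST1, which sulfates the iduronic acid, had 79.1, 74.7 and 69.8 CPM with TGF-beta against 79.6, 80.7 and 81.0 CPM in vehicle. Its conditions did not overlap, though the nearest libraries lay at 79.1 and 79.6 CPM, and it was not called (log2 -0.11, SE 0.05, edgeR adjusted p = 0.112); it was called lower without TGF-beta replicate 1 (-0.15, edgeR adjusted p = 0.0477) and without vehicle replicate 1 (-0.12, edgeR adjusted p = 0.0367).

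The endosulfatases SULF1 and SULF2 remove 6-O-sulfate from finished chains outside the cell, and vehicle replicate 1 stood apart for both. SULF2, by far the more abundant of the pair, had 58.9, 59.7 and 64.0 CPM with TGF-beta against 30.8, 49.3 and 50.8 CPM in vehicle. All TGF-beta libraries were higher, yet SULF2 was not called (log2 0.48, SE 0.21, edgeR adjusted p = 0.140); without vehicle replicate 1 the log2 fold change was smaller and was called (0.28, edgeR adjusted p = 9.13e-06). SULF1 fell, with 2.43, 2.65 and 2.06 CPM with TGF-beta against 6.56, 3.65 and 3.86 CPM in vehicle (log2 -0.96, SE 0.25, edgeR adjusted p = 0.0173). Its log2 fold change was -0.65 without vehicle replicate 1, and the call was lost without TGF-beta replicate 1 (edgeR adjusted p = 0.0607) or TGF-beta replicate 3 (0.0705).

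Hyaluronan genes divided between the precursor and the polymerases. UGDH, which makes UDP-glucuronic acid for every chain type and not for hyaluronan alone, had 101, 98.5 and 98.3 CPM with TGF-beta against 72.5, 71.2 and 68.6 CPM in vehicle. It rose by 0.49 (log2, SE 0.04, edgeR adjusted p = 8.74e-06). Both synthases on the list fell. HAS2 had 2.88, 2.96 and 2.35 CPM with TGF-beta against 8.16, 6.30 and 5.96 CPM in vehicle, all TGF-beta libraries lower, and it fell by 1.31 (log2, SE 0.14, edgeR adjusted p = 5.24e-05). HAS3, the more abundant synthase, had 19.8, 21.2 and 20.8 CPM with TGF-beta against 22.3, 27.8 and 26.6 CPM in vehicle (log2 -0.31, SE 0.08, edgeR adjusted p = 0.0112). The HAS3 call was lost without TGF-beta replicate 1 (0.0563) or vehicle replicate 2 (0.0557). The third synthase gene, HAS1, which is not among the 38 and is named for its measured change, was called higher from a trace level, with 59 reads over the TGF-beta libraries against 13 over vehicle (log2 2.47, SE 0.37, edgeR adjusted p = 0.000392).

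Levels were compared between genes on the RPKM scale, reads scaled to gene length and library size, as deposited by the authors. Per gene length, NDST1 had rank 1 among the 38 in both conditions, at 26.4 RPKM with TGF-beta and 12.8 RPKM in vehicle, and CHPF2 rank 2 (13.6 and 11.2 RPKM). CHST3 had rank 3 with TGF-beta (10.3 RPKM) and rank 6 in vehicle (5.25 RPKM). CHST15 had rank 7 with TGF-beta (4.60 RPKM) and rank 4 in vehicle (7.64 RPKM), and CHST11 had rank 9 with TGF-beta (4.34 RPKM) and rank 27 in vehicle (1.81 RPKM). HS6ST1 had rank 29 with TGF-beta (1.01 RPKM) and rank 21 in vehicle (2.28 RPKM). Summed over classes, the chondroitin and dermatan genes gave 59.0 ± 0.723 RPKM with TGF-beta and 52.1 ± 1.39 RPKM in vehicle, and the heparan genes 54.5 ± 0.676 and 44.5 ± 0.864 RPKM (SD, n = 3 each). Linker genes summed to 14 ± 0.665 RPKM with TGF-beta and 15.5 ± 0.812 RPKM in vehicle. Here and for the summed levels below, RPKM lacks the TMM scaling used for CPM and the calls. XYLT2 had 2.59 RPKM with TGF-beta and 2.83 RPKM in vehicle, against 34.3 and 35.3 CPM. B3GALT6 had 2.24 RPKM in both conditions, against 15.0 CPM with TGF-beta and 14.2 CPM in vehicle. Differences between conditions in these sums thus include the scaling.

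**Figure D3:**
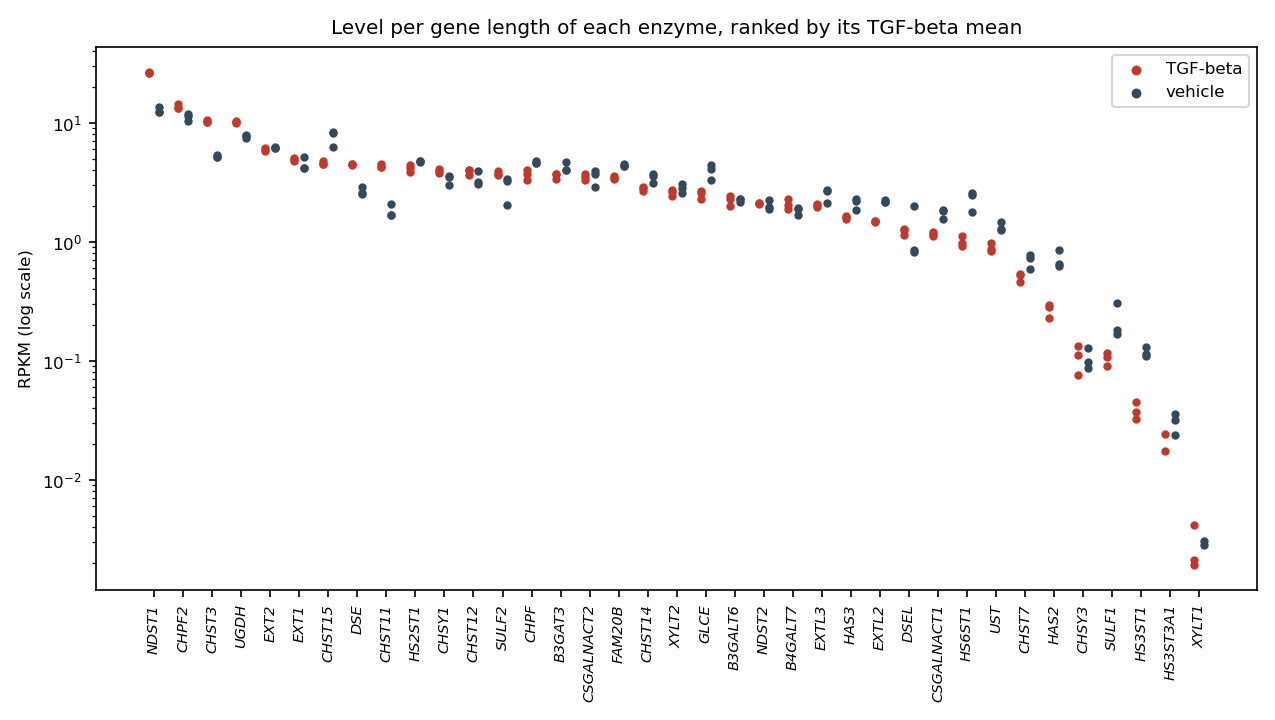
RPKM of each enzyme in each library on a log axis, TGF-beta libraries left and vehicle libraries right of each gene's position, ranked by the TGF-beta mean (libraries at 0 are not drawn, nor is HS6ST2, at 0 with TGF-beta). NDST1 is the highest in both conditions, and HS3ST1, HS3ST3A1 and XYLT1 are at the low end.

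The make-up of several groups of enzymes differed between the conditions, which is given here without a test. Among the 6 GalNAc sulfotransferases, CHST3 made up 39.0 ± 0.851% of the summed RPKM with TGF-beta and 23.6 ± 1.40% in vehicle (SD, n = 3 each). CHST11 made up 16.4 ± 0.555% with TGF-beta and 8.16 ± 1.27% in vehicle. CHST15, the largest share in vehicle at 34.2 ± 4.14%, made up 17.4 ± 0.864% with TGF-beta; its vehicle share was 29.4% in replicate 1 and 36.6% in both replicates 2 and 3. The summed level of the 6 differed less, at 26.4 ± 0.306 RPKM with TGF-beta and 22.3 ± 0.717 RPKM in vehicle. The heparan sulfotransferases of the 38 genes, which sulfate different positions, were summed together. Among them, NDST1 held 78.3 ± 0.680% with TGF-beta and 58.2 ± 3.11% in vehicle. HS2ST1 held 12.3 ± 0.897% and 21.6 ± 0.373%, and HS6ST1 held 3.0 ± 0.292% and 10.4 ± 2.03%. A share depends on every gene in the sum, and HS2ST1 itself was not called (log2 -0.11). HS3ST3B1, not among the 38, had 0.331 RPKM with TGF-beta and 0.498 RPKM in vehicle and is not in this sum. The NDST2 part of the sum is uncertain, as 82.9% of its exon bases are shared with AC022400.6. With the same limit, NDST1 made up 92.6 ± 0.182% of NDST1 and NDST2 alone with TGF-beta and 86.4 ± 1.64% in vehicle. DSE made up 78.5 ± 0.945% of the 2 dermatan epimerases with TGF-beta and 69.8 ± 9.09% in vehicle, with 59.4% in vehicle replicate 1. HAS2 was 14.3 ± 1.63% of HAS2 and HAS3 together with TGF-beta and 25.3 ± 5.44% in vehicle (31.6% in replicate 1, 22.3% and 22.0% in replicates 2 and 3), and their sum was 1.88 ± 0.0657 RPKM with TGF-beta and 2.83 ± 0.119 RPKM in vehicle. Subunit shares of the EXT1 and EXT2 copolymerase overlapped between conditions through vehicle replicate 1. EXT1 made up 44.5 to 45.9% with TGF-beta, 45.5% in vehicle replicate 1 and 40.2% in both vehicle replicates 2 and 3.

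**Figure D4:**
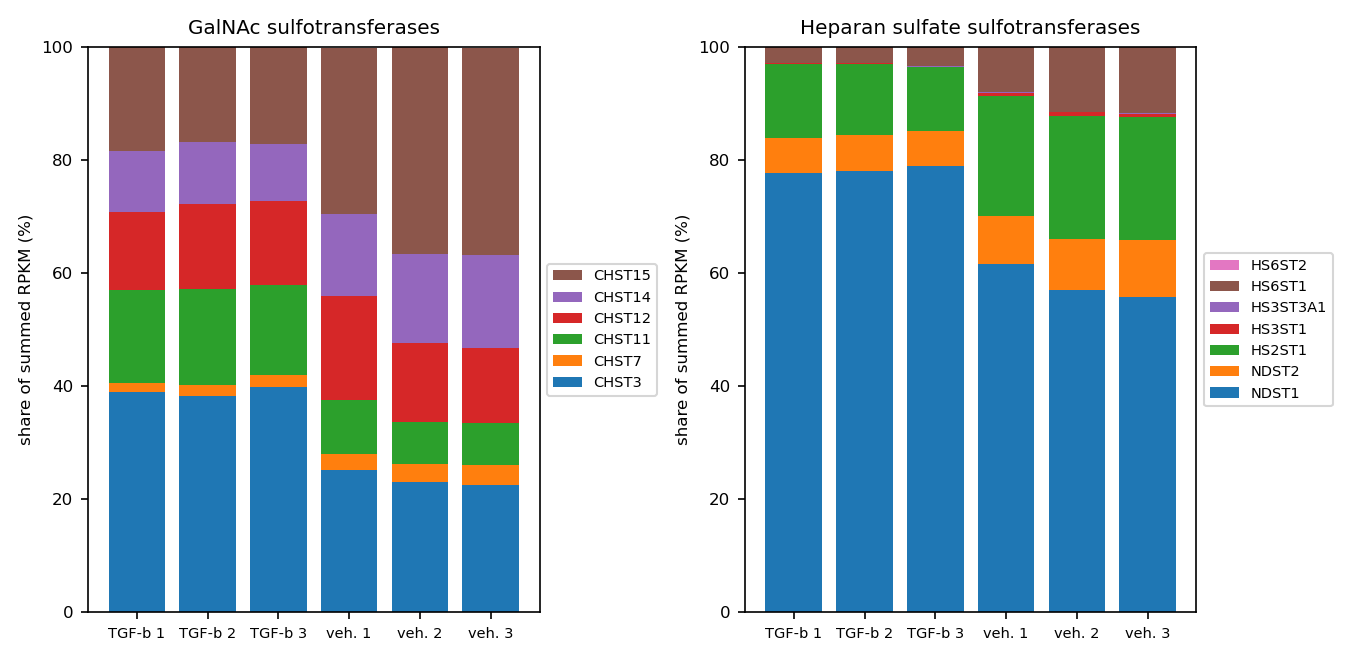
Share of each enzyme in the summed RPKM of its group, per library, for the listed GalNAc sulfotransferases and the listed heparan sulfate sulfotransferases. Each group pools enzymes that sulfate different positions. CHST3 and CHST11 take larger shares and CHST15 a smaller one in each TGF-beta library, and NDST1 takes a larger share and HS6ST1 a smaller one.

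The spread between replicates differed between the conditions, and vehicle replicate 1 moved with that difference. The median coefficient of variation of the 35 tested members was 4.91% with TGF-beta and 9.0% in vehicle, and it was larger in vehicle for 26 of them. Between vehicle replicates 2 and 3 alone the median was 2.64%, which is under the 3.47 to 6.06% of the TGF-beta pairs, while pairs with vehicle replicate 1 gave 10 and 12%. The largest, 54.3%, was that of DSEL in vehicle. Vehicle replicate 1 was 2.37 times the mean of vehicle replicates 2 and 3 for DSEL and 1.75 times for SULF1, and 0.617, 0.706 and 0.759 times for SULF2, HS6ST1 and CHST15. Without vehicle replicate 1, 12 members were called higher and 17 lower. Calls over all genes rose as well, to 5428 higher and 5556 lower of 21781 tested. With all libraries they were 4145 higher and 4278 lower of 20992. The part of vehicle replicate 1 in the values of the members was not tested beyond leaving it out.

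Genes that supply the chains with sugar nucleotides and sulfate were read alongside, from a list of 57 related genes of which 49 were tested (19 higher, 12 lower, 63.3% called, against 40.1% of all genes). Without vehicle replicate 1, 20 were higher and 20 lower, in a fit that called 5428 of all 21781 genes tested higher and 5556 lower. In the supply group 10 of 20 rose and 4 fell. GFPT2, which commits fructose-6-phosphate to the hexosamine pathway, had 40.2, 40.1 and 39.7 CPM with TGF-beta against 20.5, 21.5 and 22.3 CPM in vehicle (log2 0.90, SE 0.05, edgeR adjusted p = 3.56e-07). UAP1, which forms UDP-N-acetylglucosamine, had 78.2, 80.1 and 74.4 CPM with TGF-beta against 40.4, 45.0 and 44.0 CPM in vehicle (log2 0.85, SE 0.05, edgeR adjusted p = 8.20e-07). For both, every TGF-beta library was above every vehicle library, and PGM3 (0.59), GFPT1 (0.33) and GNPNAT1 (0.18), the other genes of that route on the list, were called higher as well; these 5 were grouped after their values were seen. The GNPNAT1 call was lost without TGF-beta replicate 1 or 2 or vehicle replicate 2 or 3 (edgeR adjusted p from 0.0557 to 0.105) and with library totals alone (0.462). SLC26A2, the plasma membrane sulfate transporter, rose, with 588, 558 and 535 CPM with TGF-beta against 419.7, 291 and 281 CPM in vehicle (log2 0.76, SE 0.18, edgeR adjusted p = 0.0235). Vehicle replicate 1 was the highest vehicle library, and the call was lost without any 1 of the other 5 libraries (edgeR adjusted p from 0.0533 to 0.0680) and without a filter on low counts (0.0685). With vehicle replicate 1 left out, SLC26A2 rose by 0.97 (log2, edgeR adjusted p = 9.55e-18). PAPSS1 and PAPSS2, which make the sulfate donor, were not called (log2 -0.14 and -0.12), though PAPSS2 was called lower without vehicle replicate 1 (-0.15, edgeR adjusted p = 0.00347). Among the falls were UXS1 (-0.29), which makes UDP-xylose for the linker, and the nucleotide sugar transporter gene SLC35A3 (-0.22). The SLC35A3 call was lost without TGF-beta replicate 2 (edgeR adjusted p = 0.0586), TGF-beta replicate 3 (0.0556) or vehicle replicate 2 (0.0589).

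**Figure D5:**
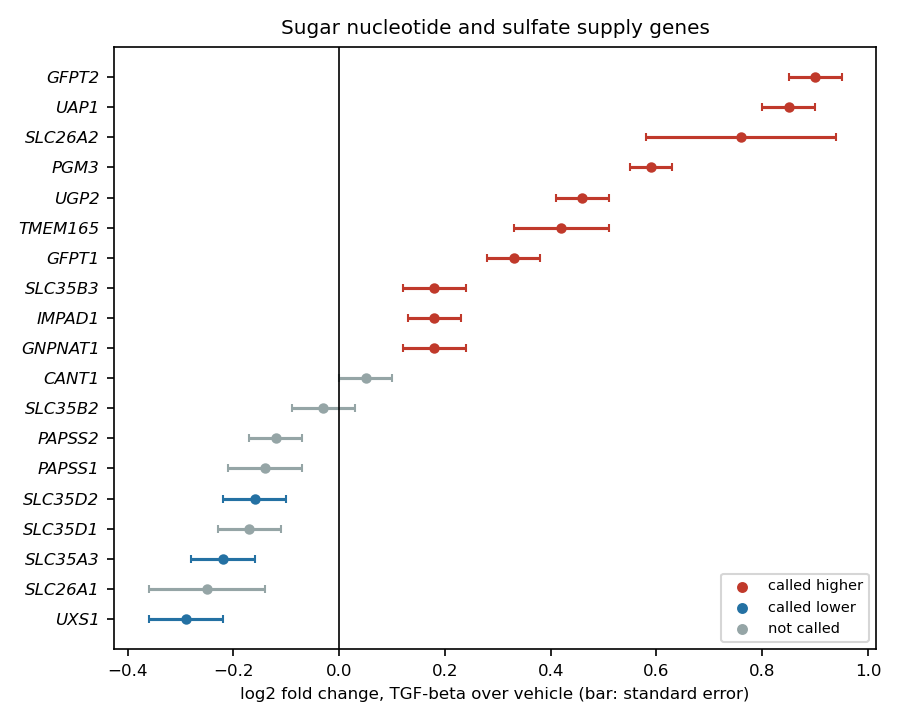
Log2 fold change of TGF-beta over vehicle, with its standard error, for 19 of the 20 tested genes of sugar nucleotide and sulfate supply. GFPT2, UAP1 and SLC26A2 lead the 10 called higher, and UXS1 lies at -0.29.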

How the data were processed

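RNA of 6 H69 libraries was analysed from 1 deposited table. Per the submitters' processing notes, bcl2fastq, STAR 2.6.1 and featureCounts of Subread were used with build hg38; the annotation release, strand setting and multi-mapping are not given in the sources used here. The count columns deposited by the authors are raw whole-number reads for each gene, per the file headers. The RPKM columns were computed by the authors, per the file headers, and match the count over gene length plus 1 and over a library total of which the table's counts are 41.9 to 43.3%. They were not rescaled here and serve for levels, shares and ratios between genes.

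Counts were fitted in R 4.3.3 with edgeR 4.0.16 (TMM, filterByExpr, robust quasi-likelihood test, no block, Benjamini-Hochberg over 20992 genes); the standard error is the absolute log2 fold change over the square root of F. The biological coefficient of variation was 7.88%. No pair of libraries agreed closely enough to be counted as 1 sample. The fit was also run on simulated counts in which a small set of genes changed by known folds, about as often up as down. Such counts do not test the scaling where many genes change, as they did here. Alternatives were RLE factors, library totals, no filter, a filter of 1 CPM in 3 libraries, DESeq2 1.42.0, limma 3.58.1 on log2(RPKM + 1) and log2(RPKM + 0.1), a replicate block, and each library left out. The related-gene counts under these alternatives, the spread of library pairs and the shares by vehicle replicate were added after seeing the data.

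The members, the related-gene list and the markers were chosen with earlier results of these data known. Members called with an absolute log2 fold change of at least 0.5, or most abundant per length in their class, are given in full, and the 3 largest called rises and falls of each related group with a mean of at least 1 CPM are named; some results are not reported here. UST, just under that size, was added after its values were seen. Exon overlaps were read from GENCODE 29, in which 35 members have the span the table gives; 14 members share exon bases with another tested gene, so their reads may be divided; beyond NDST2 and DSEL the share was at most 9.69% (HS2ST1), and 8.87% for EXTL2, 7.24% for UGDH and 6.90% for HAS3.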

Additional observations from a re-analysis of the deposited data

How the results depend on the processing

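Of the 23 called members, 16 kept their call in every alternative that tested them (7 higher, 9 lower), and none changed sign; B4GALT7, CHPF, CHST7, CHST12, CHST14, SULF1 and HAS3 lost theirs in at least 1. Calls kept in every alternative were not counted over all genes. Over all alternatives 7 to 12 members were called higher and 10 to 17 lower. For all genes, whose number tested differed by fit, the ranges were 2402 to 5428 higher and 3055 to 7282 lower. Leaving out 1 library gave 13 to 20 related genes higher and 8 to 20 lower, the highest counts being without vehicle replicate 1 and the lowest without TGF-beta replicate 2. Library totals alone gave 2698 genes higher and 7282 lower, 27.0% of calls being higher in place of 49.2%, and 21 related genes lower, since that scaling shifts the median of all genes. With limma on log2(RPKM + 1) and log2(RPKM + 0.1), 2406 and 2402 genes and 10 related genes each were called higher (34.8% and 34.7% of calls); CHSY3, HAS2, HS3ST1 and SULF1 were under its RPKM filter. Members that were not called and changed sign were B3GALT6, CSGALNACT2, DSEL and EXT2 with library totals alone (-0.04, -0.04, -0.03 and -0.10) and B3GALT6 and EXT2 with limma (-0.0044 and -0.05, then -0.007 and -0.06). Some members without a call gained one. In edgeR fits EXTL3 was called lower with library totals (adjusted p = 0.00918), no filter (0.000378) and the block (0.0361). HS2ST1 (0.00397) and B3GAT3 (0.0139) were lower with library totals. EXT1 was higher with no filter (0.000482) and the block (0.0210). Limma called EXTL3 (adjusted p = 0.0479 and 0.0471) and HS2ST1 (0.0253 and 0.0259) lower. With 1 library left out, XYLT2 ran from -0.10 to 0.02, CSGALNACT2 from -0.03 to 0.18, CHSY3 from -0.03 to 0.33 and DSEL from -0.12 to 0.63. The cause was not tested. The labels do not say whether the replicate numbers pair the libraries. Deviations of same-numbered libraries correlated at 0.0652, 0.0623 and 0.0129, and those of differently numbered libraries at -0.0702 to 0.0136. These values cannot decide whether the libraries were paired, as weak pairing would also give low correlations. With the replicate number as a block 9 members were higher and 15 lower, and 4247 genes higher and 4330 lower. At under 1 CPM, as for HS3ST1 with TGF-beta, few reads limit the precision; XYLT1, HS3ST3A1 and HS6ST2 were too shallow to test.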

Other observations

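Genes that take glycosaminoglycans apart moved in both directions, with 5 of 19 tested members of the degradation list higher and 6 lower (57.9% called, against 40.1% of all genes tested). CEMIP, a hyaluronan-depolymerising protein, had 8.84, 9.64 and 10.2 CPM with TGF-beta against 2.38, 3.35 and 3.24 CPM in vehicle, a rise of 1.67 on the log2 scale (SE 0.13, edgeR adjusted p = 3.04e-06). TMEM2, now named CEMIP2 (0.70), and HYAL3 (0.40), a gene of the hyaluronidase family, were the next largest rises. HPSE, the heparanase that cuts heparan sulfate, had 20, 21.0 and 21.6 CPM with TGF-beta against 48.0, 38.4 and 37.2 CPM in vehicle, and it fell by 0.98 (SE 0.09, edgeR adjusted p = 5.15e-05). The lysosomal sulfatase genes IDS (-0.82) and SGSH (-0.41), both of heparan sulfate breakdown, completed the largest falls.

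Among 17 other enzymes of chain synthesis, 10 were tested, and 4 rose and 2 fell (60.0% called, against 40.1% of all genes tested). B3GNT7 (1.46) and CHST6 (1.44), both of keratan sulfate synthesis, rose, B3GNT7 having 9.94, 10.5 and 11.1 CPM with TGF-beta against 4.94, 3.22 and 3.41 CPM in vehicle. B4GALT4 (0.27), a galactosyltransferase of the same chain, was called higher too, but not without any 1 of the libraries other than vehicle replicate 1 (edgeR adjusted p from 0.0579 to 0.0762) or with library totals alone (0.169). HS3ST3B1 (-0.51), a 3-O-sulfotransferase, and PXYLP1 (-0.46), the phosphatase that removes the phosphate FAM20B adds, were called lower.

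Ratios of RPKM between 10 pairs of enzymes, chosen after their values were seen, are given as a description. NDST1 over HS6ST1 ran from 23.8 to 28.2 in the TGF-beta libraries and from 4.77 to 7.69 in the vehicle libraries. CHST11 over CHST15 ran from 0.886 to 1.01 with TGF-beta and from 0.202 to 0.327 in vehicle, whereas CHST3 over CHST11 differed less, at 2.24 to 2.50 and 2.62 to 3.09. DSE over CHST14, the epimerase and the sulfotransferase of dermatan sulfate, ran from 1.56 to 1.66 with TGF-beta and from 0.683 to 0.932 in vehicle.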
